A study of Mus musculus with 9 samples.

Results

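Genes of amino acid supply and of the ATF4 stress response were followed in quiescent MEFs, the embryonic fibroblasts of the mouse, which are cultured cells of connective tissue. The cells differed in Cdkn1b, which encodes the cell cycle inhibitor p27, and had 3 genotypes. The genes were taken from a list of 35 symbols in 4 roles, matched through the array's annotation, with the brightest probe set of a single symbol for each gene. This list and the further lists below were chosen with earlier results of these data known. Their shares of called genes therefore describe the lists and are not independent of that choice. Of the 35, 33 could be measured and all 33 were among the 11962 genes tested, of 19937 genes with such a probe set. Pycr1 and Aars had no probe set with a single symbol and are not analysed here. The groups are p27CK cells (CK), p27 knockout cells (KO) and wild-type cells (WT), with 3 arrays each. In published work p27CK names a p27 protein that cannot bind cyclins and their kinases, while the labels give only the name. All cells were grown with 10% fetal serum and then left for 72 h without serum. The extraction protocol, shared by all samples, speaks of wild-type or delta51 mice, and what delta51 stands for is not given in the sources used here. Whether replicate arrays stand for separate embryos or cultures is not given in the labels. The p-values measure only how far replicate arrays lie apart, a spread that may be technical, and genotype and culture cannot be told apart.

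ATF4 is a transcription factor whose protein is made when the translation factor eIF2 is phosphorylated, which happens when amino acids run short, when unfolded proteins gather in the endoplasmic reticulum, or under other stresses. Its control lies largely in translation, so the level of its RNA need not follow its protein. ATF4 switches on genes that import amino acids, make serine, asparagine and proline, load amino acids onto tRNAs, and, when stress lasts, slow growth or promote cell death. Fibroblasts need this supply to make collagen, which is rich in glycine and proline.

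Array medians lay between 7.29 and 7.40 on the log2 scale, and correlations across probe sets were 0.995 to 0.998 within a genotype and 0.964 to 0.975 between genotypes. On its brighter probe set Cdkn1b read 11.10 ± 0.09 in CK, 7.38 ± 0.11 in KO and 11.46 ± 0.04 in WT (log2 level, SD, n = 3 each), with a KO minus WT difference of -4.09 (limma adjusted p = 6.63e-10). Its other probe set did not separate KO from WT in the limma fit over probe sets (7.60 ± 0.05 in KO and 7.43 ± 0.12 in WT, adjusted p = 0.109). Levels of that probe set lay near 7.24, under which a gene counted as dim, and may be background. In the same fit CK was lower than WT by 0.37 on the brighter probe set (adjusted p = 0.00166) and by 0.34 on the other (adjusted p = 0.00452). All 10 fibroblast markers passed the filter on dim genes, so the labelled cell type was detectable by its markers in these arrays. Led by Thy1 (7.14 ± 0.25 in KO and 11.73 ± 0.19 in WT), 9 of the 10 were called lower in KO than in WT, where 24.6% of all tested genes were. Their summed antilog levels were 67040 to 70811 in CK, 54951 to 55686 in KO and 75081 to 79101 in WT. All 7 tested of 8 cartilage markers were called higher in KO than in WT, where 26.6% of all tested genes were. Some of the 7 were dim in CK and WT and passed the filter through KO alone. The cartilage marker not tested was lower in KO (6.21 ± 0.17) than in WT (7.77 ± 0.61). Summed levels of all 8 were 2626 to 2930 in CK, 41830 to 47818 in KO and 13774 to 14330 in WT. In CK 4 of the 7 tested were called lower than in WT and 1 higher, against 32.1% and 30.7% of all tested genes. Cnmd, the brightest of them in WT (13.33 ± 0.01), was at -6.03 in CK from WT, and Ucma at 1.99, so the sums do not stand for each cartilage marker. Summed macrophage markers, 5 of 8 below a log2 level of 7.24 on every array, were 1042 to 1107 in CK, 1134 to 1315 in KO and 2253 to 2416 in WT. The 2 tested macrophage markers split, so the sums do not stand for the list as a whole. Cd68 was at -2.05 in CK and -2.66 in KO from WT, and Lyz2 at 0.70 and 1.93 from a dim WT level of 6.90. Endothelial markers, 3 of 7 below 7.24, summed to 769 to 773 in CK, 792 to 819 in KO and 2319 to 2545 in WT. Only 2 of the 7 were bright enough to be tested. These were Eng (-2.85 in CK and -2.69 in KO from WT) and Tek (-2.26 and -1.97). Neural markers, 4 of 7 below 7.24, summed to 1720 to 2184 in CK, 750 to 815 in KO and 1994 to 2225 in WT. In CK the 2 tested neural markers split, with Map2 at -1.22 and Mbp at 0.37 from WT. An untested neural marker stood 3.45 above its dim WT level of 6.04 in CK. Epithelial markers, 3 of 7 below 7.24, summed to 1123 to 1237 in CK, 950 to 991 in KO and 894 to 972 in WT. Among the 3 tested, Krt19 was at 1.30 and Krt18 at -0.09 in CK from WT, so these sums do not stand for the list either. Skeletal muscle markers, 5 of 7 below it, had a narrow range, 955 to 996 in CK, 923 to 969 in KO and 954 to 986 in WT. The part of these shifts in the results below was not tested. In bulk samples, fewer cells of a type and less RNA per cell cannot be told apart.

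In CK cells nearly the whole set stood above WT. Of 33 genes, 29 were called higher (87.9%) and 3 lower, where 30.7% of all tested genes were called higher and 32.1% lower. At a difference of at least 2-fold, 20 were higher and 1 lower, against 5.01% and 5.8% of all tested genes. The median difference was 1.39 on the log2 scale for the set and -0.01 for all tested genes. Among them were Chac1, an enzyme that breaks down glutathione, at 3.48 above WT, the cystine importer Slc7a11 at 3.94 and the arginine and lysine importer Slc7a3 at 3.75. The WT levels of Slc7a11 (6.50) and Slc7a3 (7.44) lay below or near the level of 7.24 under which a gene counted as dim, so their differences are those of measured values that may be background in WT.

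In KO cells the same set was split. Of 33 genes, 12 were called higher than in WT and 7 lower, where 26.6% of all tested genes were called higher and 24.6% lower, so the 36.4% and 21.2% of the set lay near the background. At a difference of at least 2-fold, 5 were higher and 1 lower, against 3.36% and 5.41% of all tested genes. The 5 were Cbs, Psat1, Phgdh, Slc7a1 and Slc7a5, and the 1 was Slc1a3. The median difference was 0.11 for the set and 0.01 for all tested genes. Centring each array on its median adds 0.12 to every KO minus WT difference. With it 16 genes of the set were called higher and 5 lower, and the higher share of all calls was 70.6%, against 51.9% without it. KO versus WT differences of this size are therefore relative to the scaling.

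Set directly against KO, CK was higher for 30 of 33 genes and lower for 1, where 29.5% of all tested genes were called higher and 32.7% lower. At a difference of at least 2-fold, 18 were higher and 1 lower, against 7.06% and 5.38% of all tested genes. The median difference was 1.11 for the set and -0.02 for all tested genes. The gene lower in CK was Cbs, and the 2 not called were Vldlr and Phgdh. Vldlr was called lower in CK without CK replicate 3 (adjusted p = 0.0206) and with median centring (0.0403), which raises the count of lower genes to 2. The CK versus WT and KO versus WT comparisons share the WT arrays, so their values are given side by side and no overlap between them is counted.

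**Figure D1:**
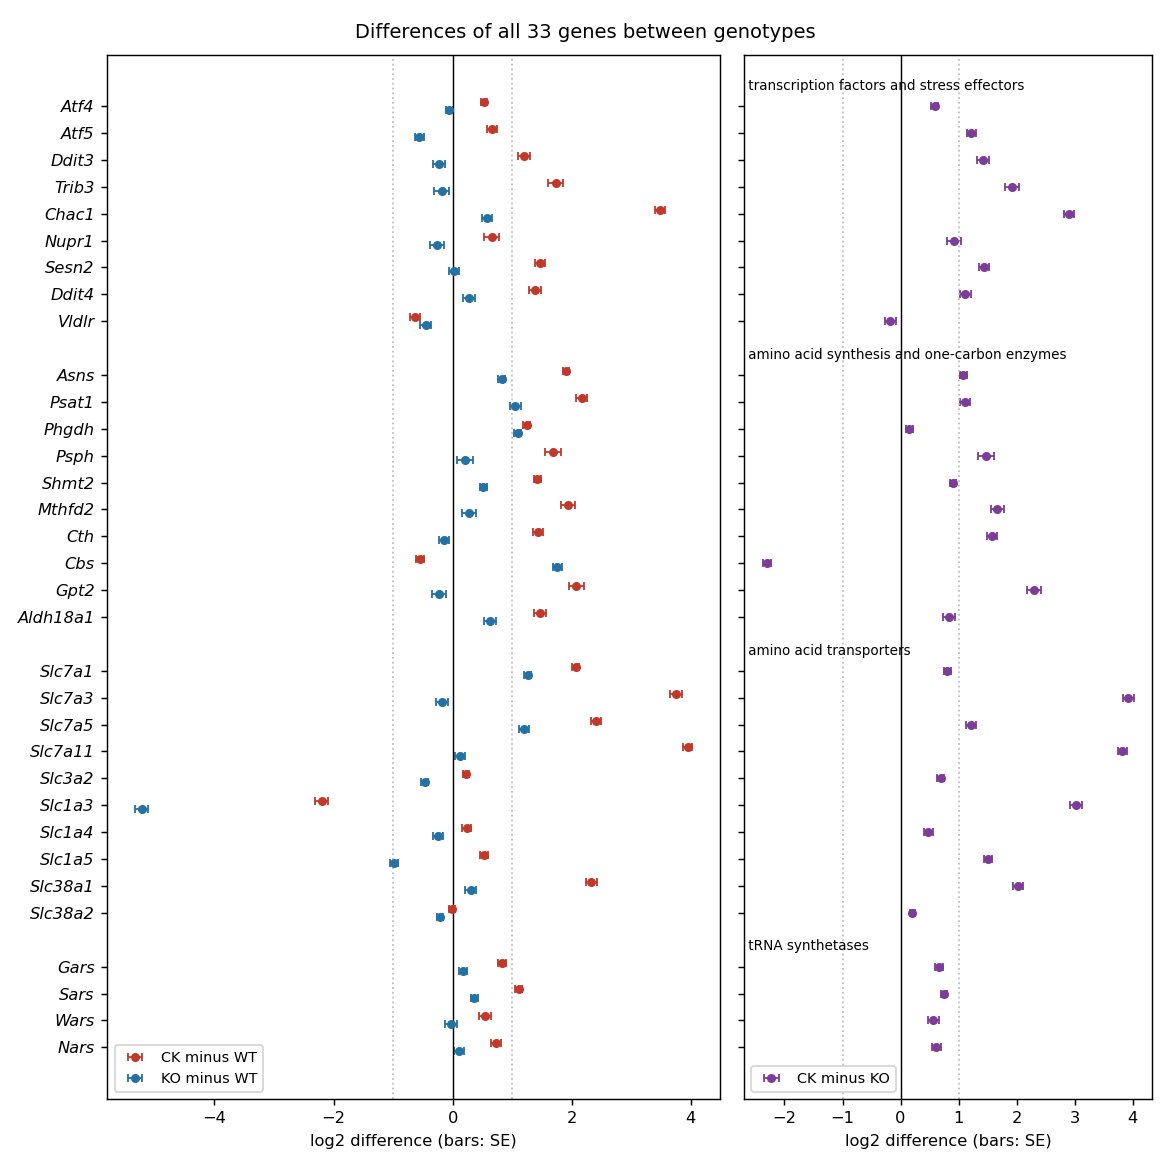
Log2 differences of the 33 measured genes, grouped by role, with bars for the limma SE (3 arrays per genotype). The left panel shows CK minus WT in red and KO minus WT in blue, the right panel CK minus KO in purple, and dotted lines mark 2-fold. Red points lie right of 0 for all genes but Vldlr, Cbs, Slc1a3 and Slc38a2, whereas blue points lie on both sides.

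The core of the element that ATF4 binds with C/EBP partners was looked for in the promoters, since many of these genes moved together in CK. The letters searched were TGATGNAA on both strands, in RefSeq promoters of GRCm38.p6 that run from 250 bases before to 50 bases after the annotated start. A promoter was found for 28 of the 35 genes, and 10 of these held a match (35.7%). Of all 27025 genes with a promoter in the table, 1219 held one (4.51%), and of 32851 promoters 1304 did (3.97%). Of the 9564 tested genes with a promoter, 247 held one (2.58%). The set was chosen as genes of amino acid supply and the ATF4 response, so its share may follow from that choice and says nothing about CK. Among the 10, Pycr1 and Aars have no measured values here. The matches of the 8 measured genes are printed below with 10 bases on either side, 5′ to 3′ on the gene's strand, because they let the core be compared between genes that rose strongly in CK and genes that did not. Capitals mark the match, and a match on the opposite strand is shown as its reverse complement.
Chac1: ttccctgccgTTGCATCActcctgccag
Slc7a11, first match: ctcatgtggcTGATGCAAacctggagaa
Slc7a11, other match: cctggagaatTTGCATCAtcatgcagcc
Trib3: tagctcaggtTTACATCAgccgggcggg
Asns: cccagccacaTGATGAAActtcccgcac
Gars: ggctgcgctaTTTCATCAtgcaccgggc
Nupr1: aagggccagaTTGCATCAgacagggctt
Slc1a4: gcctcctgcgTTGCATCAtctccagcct
Vldlr: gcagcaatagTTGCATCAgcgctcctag

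Measured genes with and without a match had medians close to each other. The 8 measured genes with a match had CK minus WT differences from -0.63 to 3.94 with a median of 1.28, and the 18 measured genes whose promoter had none ranged from -2.20 to 2.16 with a median of 1.31. In KO minus WT the medians were -0.03 and 0.24. No test was made, a match is not a shown site, and 300 bases leave out most of a gene's control region. A second motif, the endoplasmic reticulum stress element (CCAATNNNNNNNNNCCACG, both strands), matched in 0 of the 28 genes and in 0.137% of all genes with a promoter.

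The promoters of Chac1, Slc7a11 and Asns are shown whole, as examples chosen after their values were seen: the first 2 had wide differences in CK, and Asns is the enzyme by which the amino acid response is best known. They lie at chr2:119350992-119351291 (plus strand), chr3:50443564-50443863 (minus strand) and chr6:7693160-7693459 (minus strand) of GRCm38.p6. The Slc7a11 promoter holds a pair of matches on opposite strands, at positions -66 to -59 and -47 to -40 from the start.
Chac1: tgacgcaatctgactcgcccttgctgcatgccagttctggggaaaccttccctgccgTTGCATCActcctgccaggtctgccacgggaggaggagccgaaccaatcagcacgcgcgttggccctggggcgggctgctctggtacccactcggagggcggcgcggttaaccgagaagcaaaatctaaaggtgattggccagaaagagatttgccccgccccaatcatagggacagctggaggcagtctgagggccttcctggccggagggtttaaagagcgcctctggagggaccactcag
Slc7a11: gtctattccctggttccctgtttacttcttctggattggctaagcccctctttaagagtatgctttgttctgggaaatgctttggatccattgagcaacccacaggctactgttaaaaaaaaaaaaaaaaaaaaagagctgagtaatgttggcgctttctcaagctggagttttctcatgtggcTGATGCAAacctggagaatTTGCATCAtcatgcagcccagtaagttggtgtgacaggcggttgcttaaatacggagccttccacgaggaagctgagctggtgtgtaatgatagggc
Asns: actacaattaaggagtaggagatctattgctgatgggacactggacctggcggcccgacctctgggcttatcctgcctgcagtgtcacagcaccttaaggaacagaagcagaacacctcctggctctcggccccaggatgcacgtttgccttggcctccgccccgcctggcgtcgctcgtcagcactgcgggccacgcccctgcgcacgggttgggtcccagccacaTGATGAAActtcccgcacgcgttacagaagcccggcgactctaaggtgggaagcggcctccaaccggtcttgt

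**Figure D2:**
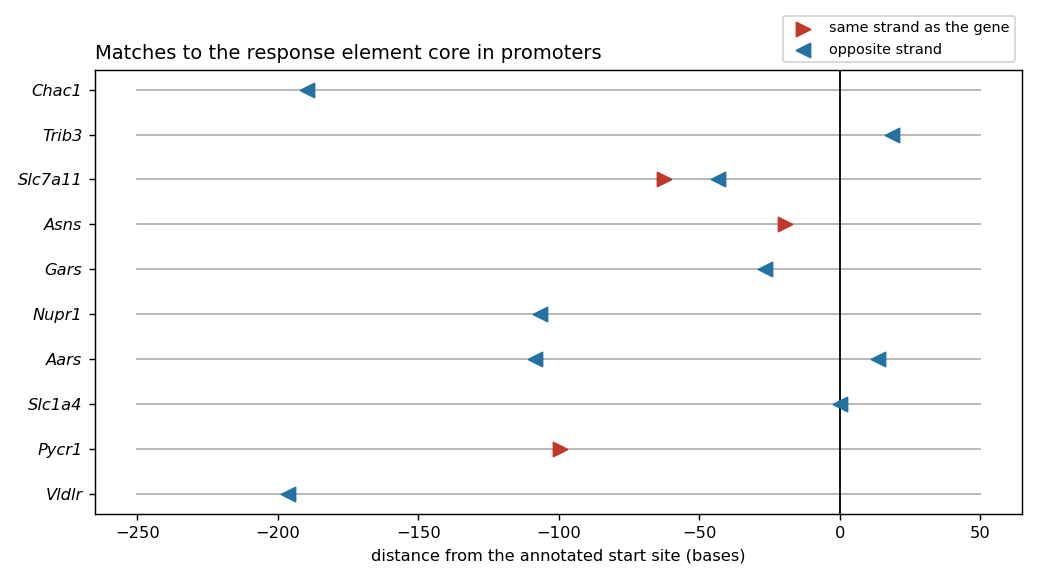
Positions of matches to the 8-letter core in the promoters of the 10 genes that hold one, by distance in bases from the annotated start site. Grey lines span the promoter searched, red triangles point along the gene's own strand and blue triangles mark the opposite strand. Matches lie on both sides of the start, and Slc7a11 and Aars hold 2 each.

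Transcription factors and stress effectors were higher in CK than in WT with 1 exception. Of these 9 genes, 8 were called higher and 1 lower in CK than in WT, with a median difference of 1.19, where 30.7% of all tested genes were called higher and 32.1% lower. In KO 2 were higher and 2 lower, with a median of -0.18, near the 26.6% and 24.6% of all tested genes. Atf4 read 9.79, 9.74 and 9.76 in CK, 9.21, 9.19 and 9.14 in KO, and 9.21, 9.33 and 9.16 in WT (log2 levels, 1 value per array). CK arrays lay above all others, while KO and WT arrays overlapped. The CK minus WT difference was 0.53 (SE 0.06, limma adjusted p = 1.38e-05), and that of KO minus WT was -0.06 (adjusted p = 0.445, with its sign turned to 0.06 by median centring).

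Ddit3 encodes CHOP, a factor that acts with ATF4 in lasting stress. It read 10.33, 10.12 and 10.43 in CK, 9.03, 8.92 and 8.64 in KO, and 9.09, 9.09 and 9.12 in WT. CK was 2.29-fold above WT (log2 difference 1.19, SE 0.10, adjusted p = 2.65e-06) and 2.69-fold above KO. KO arrays were all below WT arrays, with a difference of -0.23 that was not called (adjusted p = 0.0800, and 0.0356 without KO replicate 1). Trib3, a pseudokinase induced by ATF4 and CHOP that dampens the response, read 9.54, 9.24 and 9.78 in CK, 7.66, 7.73 and 7.42 in KO, and 7.71, 7.85 and 7.79 in WT. It stood 3.33-fold above WT in CK (adjusted p = 7.27e-07), and KO overlapped WT.

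Chac1 moved furthest among the effectors. It read 12.22, 12.18 and 12.18 in CK, 9.35, 9.23 and 9.27 in KO, and 8.84, 8.80 and 8.50 in WT. No array of one genotype overlapped another, CK was 11.1-fold above WT (SE 0.08 on the log2 scale, adjusted p = 2.87e-10), and KO was 1.49-fold above WT (adjusted p = 0.000215). Atf5, an ATF4-related factor, took the opposite path in KO. It read 10.16, 10.09 and 10.34 in CK, 8.92, 8.96 and 9.04 in KO, and 9.60, 9.59 and 9.41 in WT. CK lay above WT by 0.66 (adjusted p = 3.28e-05), KO fell by 0.56 (adjusted p = 0.000163), and CK was 2.33-fold above KO (adjusted p = 2.71e-07).

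Sesn2 and Ddit4 encode proteins that restrain the growth kinase mTORC1. Sesn2 read 10.62, 10.33 and 10.47 in CK, 9.09, 9.06 and 8.94 in KO, and 9.09, 9.06 and 8.87 in WT. It was 2.77-fold above WT in CK (adjusted p = 1.41e-07), and its KO minus WT difference of 0.03 was not called (adjusted p = 0.826). Ddit4 read 10.53, 10.32 and 10.43 in CK, 9.35, 9.34 and 9.25 in KO, and 9.18, 9.14 and 8.81 in WT. CK was 2.61-fold above WT (adjusted p = 4.95e-07). The smaller KO difference of 0.27 was called (adjusted p = 0.0340), but not without KO replicate 1 (0.0972), KO replicate 2 (0.0872), WT replicate 3 (0.102) or the filter on dim genes (0.0548). Nupr1, a small chromatin protein induced by stress, rose by 0.65 in CK over WT. Its KO minus WT difference of -0.27 was not called (adjusted p = 0.0963, and 0.0275 without WT replicate 3). Vldlr, a lipoprotein receptor, was the exception and was lower than WT in both mutants: it fell by 0.63 in CK (adjusted p = 9.96e-05) and by 0.45 in KO (adjusted p = 0.00135).

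Enzymes that make amino acids and carry one-carbon units were higher in CK than in WT with 1 exception, and in part higher in KO. Of all tested genes, 5.01% were called at least 2-fold higher in CK than in WT and 32.1% lower. Of these 10 enzymes, 9 were called at least 2-fold higher in CK and 1 lower, with a median difference of 1.57. In KO 6 were called higher and 0 lower, 3 of them at least 2-fold, with a median of 0.57, where 26.6% of all tested genes were called higher, 24.6% lower and 3.36% at least 2-fold higher. Asns, which makes asparagine, read 13.16, 13.12 and 13.15 in CK, 12.06, 12.04 and 12.07 in KO, and 11.27, 11.13 and 11.31 in WT. The 3 genotypes formed separate steps, with CK 3.75-fold above WT (SE 0.06 on the log2 scale, adjusted p = 9.02e-10) and KO 1.77-fold above WT (adjusted p = 5.56e-07).

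The serine pathway has 3 enzymes in the set. Phgdh, the first step, read 11.23, 11.03 and 11.15 in CK, 11.02, 10.94 and 11.01 in KO, and 9.92, 9.93 and 9.84 in WT. Both mutants were over 2-fold above WT, by 1.24 in CK and 1.09 in KO (adjusted p = 4.13e-08 and 1.25e-07), and the CK minus KO difference of 0.15 (SE 0.06) was not called (adjusted p = 0.0515, and 0.0145 without CK replicate 2). Psat1, the next enzyme, read 12.29, 12.28 and 12.29 in CK, 11.19, 11.03 and 11.32 in KO, and 10.09, 10.00 and 10.28 in WT. It was 4.48-fold above WT in CK and 2.08-fold in KO, with no overlap. Psph, the last enzyme, read 10.19, 10.29 and 9.66 in CK, 8.64, 8.48 and 8.58 in KO, and 8.31, 8.41 and 8.37 in WT. CK was 3.20-fold above WT with a low value in CK replicate 3, and the KO difference of 0.20 was not called (adjusted p = 0.243, and 0.0197 without CK replicate 3).

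Both mitochondrial folate enzymes rose in CK. Shmt2, which splits serine into glycine and a one-carbon unit, read 12.00, 12.04 and 12.08 in CK, 11.13, 11.09 and 11.18 in KO, and 10.53, 10.67 and 10.65 in WT. CK was 2.68-fold and KO 1.43-fold above WT (adjusted p = 7.73e-09 and 2.48e-05). Mthfd2, which oxidises the folate-bound unit, read 11.67, 11.19 and 11.44 in CK, 9.77 on all 3 arrays in KO, and 9.52, 9.63 and 9.34 in WT. CK was 3.84-fold above WT. The KO difference of 0.28 was not called (adjusted p = 0.0618), though it was without WT replicate 2 (0.0460), CK replicate 1 (0.0251) or CK replicate 2 (0.0229).

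The enzymes that turn homocysteine into cysteine did not move together. Cbs, which makes cystathionine, read 7.72, 7.68 and 7.71 in CK, 9.84, 10.03 and 10.16 in KO, and 8.28, 8.24 and 8.24 in WT. KO was 3.38-fold above WT (difference 1.76, SE 0.07, adjusted p = 1.35e-08), CK fell by 0.55 below WT (adjusted p = 8.10e-05), and CK stood below KO by 4.94-fold. Cth, which splits cystathionine into cysteine, read 11.63, 11.32 and 11.28 in CK, 9.87, 9.83 and 9.80 in KO, and 9.99, 9.92 and 10.01 in WT. CK was 2.71-fold above WT (adjusted p = 1.57e-07), and the KO minus WT difference of -0.14 was not called (adjusted p = 0.196, and 0.0401 without CK replicate 1). Summed cartilage markers were also highest in KO and lowest in CK, like Cbs, and their part in its levels was not tested. Not every cartilage marker ran in this order, since Ucma was higher in CK (8.93 ± 0.32) than in WT (6.95 ± 0.24).

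Gpt2 and Aldh18a1 serve alanine and proline. Gpt2, the mitochondrial alanine transaminase, read 11.79, 11.61 and 11.61 in CK, 9.50, 9.54 and 9.06 in KO, and 9.68, 9.65 and 9.45 in WT. It was 4.22-fold above WT in CK (adjusted p = 1.59e-07), and KO overlapped WT. Aldh18a1, which starts proline synthesis from glutamate, read 12.80, 12.46 and 12.54 in CK, 11.74, 11.92 and 11.64 in KO, and 11.25, 11.13 and 11.05 in WT. CK was 2.76-fold and KO 1.54-fold above WT, and the genotypes did not overlap.

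**Figure D3:**
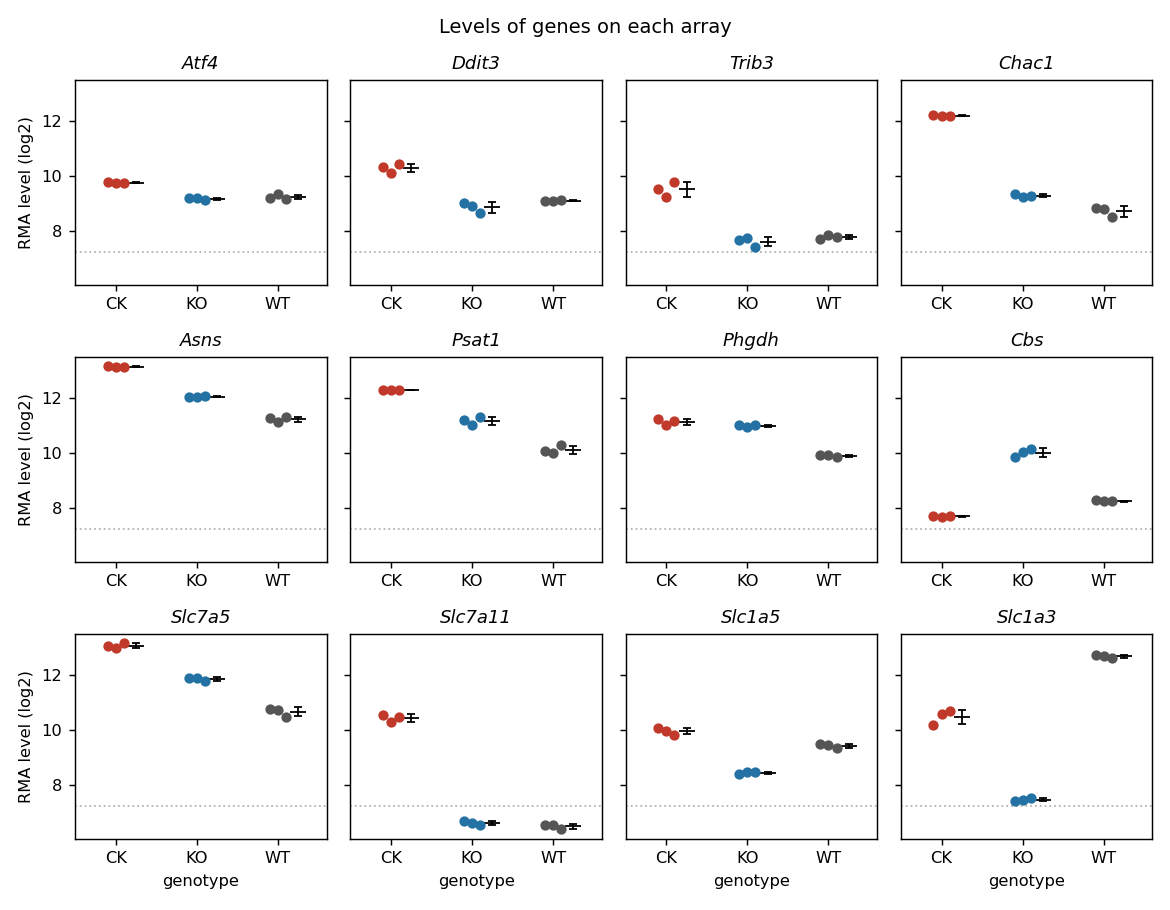
RMA levels (log2) of 12 of the genes on every array, in CK, KO and WT, with each point an array and the bar beside it the mean and SD (n = 3). The dotted line is 7.24, the level below which a gene counted as dim. Asns, Psat1 and Slc7a5 are highest in CK and lowest in WT, Slc7a11 is above the line in CK alone, and Cbs and Slc1a3 run differently from the rest.

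Amino acid transporters ran from -2.20 to 3.94 in CK minus WT and from -5.22 to 1.26 in KO minus WT. Of 10 genes, 8 were called higher and 1 lower in CK than in WT, where 30.7% of all tested genes were called higher and 32.1% lower. At least 2-fold higher in CK were 5 of the 10, against 5.01% of all tested genes. In KO 3 were called higher, near the 26.6% of all tested genes, and 5 lower, where 24.6% of all tested genes were. The medians were 1.30 in CK and -0.19 in KO, and against KO all 10 were called higher in CK, where 29.5% of all tested genes were. Slc7a11, the cystine and glutamate exchanger that feeds glutathione synthesis, read 10.56, 10.30 and 10.48 in CK, 6.70, 6.64 and 6.55 in KO, and 6.56, 6.56 and 6.39 in WT. CK was 15.4-fold above WT and 14.1-fold above KO (adjusted p = 8.56e-11 and 9.51e-11). All KO and WT arrays lay below 7.24, so the gene passed the filter on dim genes through CK alone, and its folds are those of measured values that may be background in KO and WT.

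Slc7a3 and Slc7a1 encode carriers of arginine and lysine. Slc7a3 read 11.33, 11.15 and 11.10 in CK, 7.41, 7.24 and 7.16 in KO, and 7.62, 7.41 and 7.30 in WT. CK was 13.4-fold above WT (adjusted p = 4.37e-10), and the KO difference of -0.17 was not called (adjusted p = 0.164). KO and WT values lay close to 7.24 and are not shown to be above background. Slc7a1 read 11.44, 11.33 and 11.47 in CK, 10.64, 10.66 and 10.52 in KO, and 9.30, 9.33 and 9.40 in WT. It was 4.20-fold above WT in CK and 2.40-fold in KO (adjusted p = 9.27e-10 and 3.86e-08), again in steps without overlap.

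Slc7a5 and Slc3a2 encode the light and heavy chain of the leucine carrier LAT1. Slc7a5 read 13.05, 12.99 and 13.16 in CK, 11.90, 11.90 and 11.78 in KO, and 10.78, 10.74 and 10.48 in WT. CK was 5.29-fold and KO 2.28-fold above WT (adjusted p = 2.95e-09 and 7.52e-07). Slc3a2, which also pairs with Slc7a11, went the other way in KO: it rose by 0.22 in CK (adjusted p = 0.00487) and fell by 0.47 in KO (adjusted p = 4.00e-05). In KO the RNA of the light chain was therefore higher and that of the heavy chain lower than in WT, on 3 of 3 arrays each. The proteins were not measured.

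Slc38a1 and Slc38a2 encode sodium-coupled carriers of neutral amino acids. Slc38a1, a glutamine importer, read 11.88, 11.83 and 11.82 in CK, 9.90, 9.89 and 9.67 in KO, and 9.64, 9.59 and 9.32 in WT. CK was 5.03-fold above WT (adjusted p = 6.90e-09). The KO difference of 0.30 was called (adjusted p = 0.0170), but not without KO replicate 1 (0.0663), KO replicate 2 (0.0617) or WT replicate 3 (0.0538). Slc38a2, a related importer, was not called in CK, where its difference from WT was -0.01 (SE 0.05, adjusted p = 0.917, turned to 0.04 by median centring). In KO Slc38a2 fell by 0.21 (adjusted p = 0.00425), a call lost with median centring (-0.09, adjusted p = 0.143).

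Slc1a5, a glutamine exchanger, split the mutants. It read 10.08, 9.98 and 9.84 in CK, 8.40, 8.49 and 8.47 in KO, and 9.48, 9.47 and 9.35 in WT. It rose by 0.53 in CK (adjusted p = 6.41e-05) and fell by 0.98 in KO (SE 0.07, adjusted p = 7.93e-07), and CK was 2.85-fold above KO. Slc1a4, a serine and alanine exchanger, differed little, by 0.24 in CK and -0.24 in KO (adjusted p = 0.0269 and 0.0282). Its CK call was lost without CK replicate 1 (0.0677), CK replicate 3 (0.0951), WT replicate 2 (0.0541) or WT replicate 3 (0.0898). Its KO call was lost without KO replicate 3 (0.0972), WT replicate 1 (0.0953) or WT replicate 2 (0.0747), and with median centring (0.211).

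Slc1a3, a glutamate importer, was the transporter that fell in both mutants. It read 10.20, 10.58 and 10.69 in CK, 7.43, 7.44 and 7.53 in KO, and 12.75, 12.69 and 12.63 in WT. CK was 4.60-fold below WT (difference -2.20, SE 0.11, adjusted p = 3.80e-08) and 8.12-fold above KO. KO lay near 7.24, so its 37.3-fold difference from WT is that of measured values. Summed fibroblast markers were likewise highest in WT and lowest in KO, and their part in this result was not tested.

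The tRNA synthetases were higher in CK than in WT. All 4 measured genes were called higher in CK than in WT, where 30.7% of all tested genes were, with a median difference of 0.78. In KO 1 of the 4 was called higher, near the 26.6% of all tested genes, with a median of 0.14. Sars, for serine, read 12.47, 12.45 and 12.56 in CK, 11.76, 11.82 and 11.66 in KO, and 11.38, 11.35 and 11.41 in WT. CK was 2.16-fold and KO 1.29-fold above WT (adjusted p = 5.82e-08 and 0.000345). Gars, for glycine, rose by 0.83 in CK, Nars, for asparagine, by 0.73, and Wars, for tryptophan, by 0.55. In KO the differences of Gars (0.17), Nars (0.11) and Wars (-0.02) were not called, with adjusted p = 0.0707, 0.283 and 0.886. Gars was called without CK replicate 1 (0.0429) and with median centring (0.00467), Nars with median centring (0.0428), and Wars turned to 0.09 with median centring and to between 0.003 and 0.02 without KO replicate 3, WT replicate 1 or WT replicate 2.

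Other cytosolic synthetases were set beside them. Of 14 tested, 12 were called higher and 0 lower in CK than in WT (median 0.57), and 8 higher and 0 lower in KO (median 0.27). Yars, for tyrosine, was 1.15 above WT in CK and -0.13 in KO, and Cars, for cysteine, 1.45 and 0.22. Of 16 mitochondrial enzymes tested, 5 were called higher and 5 lower in CK (median -0.02), close to the 30.7% and 32.1% of all tested genes. In KO 11 were higher and 0 lower (median 0.24), where 26.6% and 24.6% of all tested genes were. Wars2, for tryptophan in mitochondria, was at -0.06 in CK and 1.15 in KO. The lists were not tested against each other.

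Among 15 tested genes otherwise known to be induced by ATF4, 13 were called higher and 0 lower in CK than in WT (median 0.80). Of all tested genes, 30.7% were called higher and 32.1% lower in CK. In KO 6 of the 15 were higher and 4 lower (median 0.09), against 26.6% and 24.6% of all tested genes, so the lower count was near the background. Bcat1, which transfers the amino group of leucine, isoleucine and valine, read 11.54 ± 0.20 in CK, 10.63 ± 0.08 in KO and 8.68 ± 0.27 in WT. Eif4ebp1, a brake on translation initiation, stood 1.79 above WT in CK and 0.44 in KO. Atf3, a stress-induced factor, read 9.23 ± 0.17 in CK, 7.07 ± 0.08 in KO and 6.81 ± 0.14 in WT. Its KO and WT levels lay below 7.24 and may be background, and it passed the filter on dim genes through CK alone. Vegfa, an angiogenic factor, was 0.26 above WT in CK and fell by 1.06 in KO.

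Genes upstream of ATF4 and of other branches of endoplasmic reticulum stress were counted in the same way. Of 13 tested eIF2 kinases, phosphatase subunits and eIF2B subunits, 6 were called higher and 2 lower in CK (median 0.16), and 9 higher and 2 lower in KO (median 0.23). Eif2ak3, the kinase PERK, was at 0.09 in CK, where it was not called (adjusted p = 0.242), and 0.46 above WT in KO. Eif2b3, an eIF2B subunit, stood 0.75 above WT in CK and 0.77 in KO. Of 21 chaperone and ATF6 or XBP1 genes, 7 were higher and 3 lower in CK (median 0.10), and 6 higher and 3 lower in KO (median 0.07), where 30.7% of all tested genes were called higher and 32.1% lower in CK, and 26.6% and 24.6% in KO. Atf6 itself stood 0.79 above WT in CK and 0.38 in KO. Sdf2l1, an endoplasmic reticulum chaperone cofactor, stood 0.70 above WT in CK and 0.67 in KO, while Dnajc3, which binds unfolded proteins, fell by 0.61 in CK.

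The remaining lists of amino acid handling are read against the shares of all tested genes, 30.7% higher and 32.1% lower in CK, and 26.6% and 24.6% in KO. Of 29 genes of mTORC1 and its amino acid sensors, 7 were higher and 6 lower in CK (median 0.02), and 9 higher and 7 lower in KO (median -0.02), shares at, near or below that background. Rragd, a Rag GTPase, stood 2.91 above WT in CK and read 9.28 ± 0.17 in CK, 6.67 ± 0.13 in KO and 6.37 ± 0.07 in WT. The KO and WT levels of Rragd lay below 7.24 and may be background, and it passed the filter on dim genes through CK alone. Castor1, an arginine sensor, was lower in both mutants (-1.32 in CK and -1.07 in KO). Of 14 tested transporters outside the set, 4 were higher and 7 lower in CK (median -0.11), and 2 higher and 5 lower in KO (median -0.04). Slc38a4, a neutral amino acid importer, stood 3.07 above WT in CK and 3.36 in KO, and Slc43a2, a carrier of large neutral amino acids, -1.98 and -2.13. Of 19 tested enzymes of amino acid and one-carbon metabolism outside the set, 5 were higher and 8 lower in CK (median -0.10), and 6 higher and 6 lower in KO (median 0.09). Arg2, which breaks down arginine, read 7.27 ± 0.05 in CK, 6.66 ± 0.08 in KO and 8.78 ± 0.13 in WT, and was called lower in both mutants, at levels near or below 7.24 that may be background.

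Glutathione and NRF2 target genes were looked at because Slc7a11 and Chac1 also bear on glutathione. Of 12 tested, 7 were called higher and 2 lower in CK (median 0.39), against 30.7% and 32.1% of all tested genes. In KO 2 of the 12 were higher and 7 lower (median -0.47), against 26.6% and 24.6% of all tested genes. Gclm, a subunit of the enzyme that starts glutathione synthesis, was 0.97 above WT in CK and fell by 0.43 in KO. Nqo1, a quinone reductase controlled by NRF2, fell by 3.61 in CK, to a level of 7.30 ± 0.28 that may be background, and by 1.45 in KO.

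**Figure D4:**
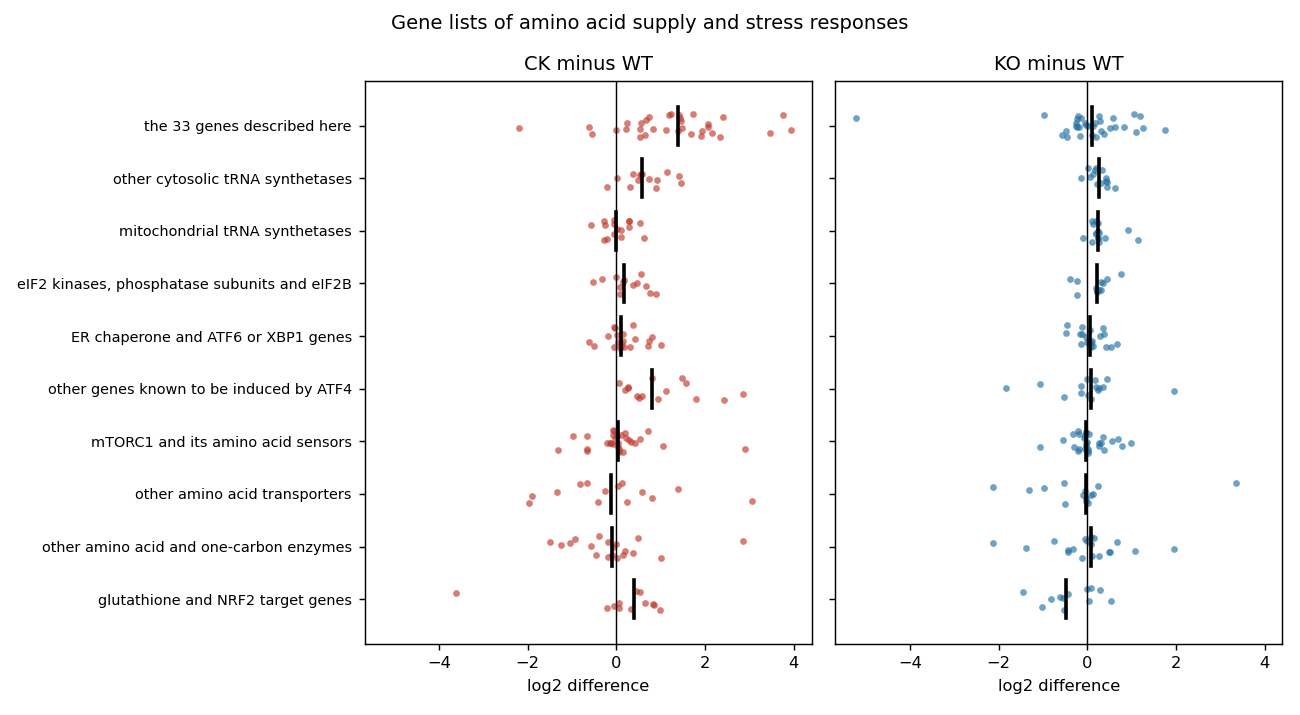
Log2 differences of the tested genes in each list, CK minus WT on the left and KO minus WT on the right, with each point a gene and each black bar the list's median. The medians of the 33 genes (1.39), of other genes induced by ATF4 (0.80) and of other cytosolic tRNA synthetases (0.57) lie right of 0 in CK, while those of chaperones (0.10) and mTORC1 genes (0.02) lie near it.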

How the data were processed

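The deposited table holds log2 expression values for 34760 probe sets on 9 arrays. RMA and affy are the tools the submitters' processing notes name for the authors' values. Versions, filters and the array annotation used by the authors are not given in the sources used here. RMA subtracts background, makes the arrays' distributions equal and summarises the probes of each probe set. The deposited strings had no decimal mark (0 cells held one). With a mark put after the first digit, no value lay between 1.44, the top of the strings that start with 1, and 4.28, so the strings that start with 1 were read as 10 or above. Where arrays of a genotype lay on both sides of 10, their median range was 0.263 after this step and 8.92 before it.

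Symbols came from the platform annotation, updated through gene identifiers to RefSeq of GRCm38.p6. Of 35 genes, 33 had a probe set with a single symbol, and the brightest was used. All 33 passed the filter on dim genes (a mean of at least 7.24 on the log2 scale, the 40th percentile over 19937 genes), which left 11962 genes. The test was limma's (version 3.58.1, R 4.3.3) in a single fit of all 9 arrays, a mean for each genotype, with Benjamini-Hochberg adjustment over all 11962 genes. A gene was called at an adjusted p under 0.05. The fit was also run on simulated data with independent noise for each gene and few changed genes. That run checks the code and does not bear on the calls made here. Genes given with every array's value were called, at least 2-fold apart and without overlap of the arrays in a comparison, besides Atf4, Ddit3 and Asns. From each further list, up to 2 genes with the smallest p in KO versus WT and in CK versus WT may be named. The genes and lists were chosen with earlier results of these data known. Promoters are RefSeq's, in GRCm38.p6. Alternatives changed the filter on dim genes, the probe sets used, the scaling, the variance model, the arrays in the fit and the replicate block. The number of arrays limits the precision.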

Additional observations from a re-analysis of the deposited data

How the results depend on the processing

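Across 16 alternatives to the fit used in the report, 1538 of 1581 differences of single genes kept their direction and their side of the threshold, 16 lost a call and 19 gained one. In 8 the sign turned, always of a difference not called: with median centring Atf4 (0.0598) and Wars (0.0945) in KO versus WT and Slc38a2 (0.0425) in CK versus WT; Wars in KO versus WT without WT replicate 1 (0.0170), WT replicate 2 (0.00276) or KO replicate 3 (0.00629), with a lowest value of -0.0834 when an array was left out; and Sesn2 in KO versus WT without WT replicate 3 (-0.0406) or KO replicate 1 (-0.00413), with a highest value of 0.0709. The median difference of the set in KO versus WT was 0.23 with median centring, and 2 genes were then lower in CK than in KO. Median centring shifts every KO minus WT difference by the same amount, by its construction. Leaving out each array gave 10 to 14 genes higher and 6 to 8 lower in KO than in WT (5 to 7 at 2-fold, median 0.06 to 0.15), 28 to 29 higher and 3 lower in CK than in WT (21 at 2-fold, median 1.27 to 1.42), and 30 to 31 higher and 1 to 2 lower in CK than in KO (19 at 2-fold, median 1.08 to 1.12). Over all genes it gave 6942 to 7648 calls between CK and WT, 5297 to 6233 between KO and WT, and 6785 to 7528 between CK and KO.

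Replicate numbers did not mark pairs: deviations of same-numbered arrays correlated at between -0.264 and 0.336. With the replicate number as a replicate block, 7377 genes were called between CK and WT, 5979 between KO and WT and 7291 between CK and KO, with 12 of the set higher and 8 lower in KO than in WT (Slc7a3 was the added call), 29 and 3 in CK against WT, and 30 and 1 in CK against KO. A 3-against-3 exact two-sided permutation test cannot go below 0.1. The table has no detection calls, so levels near 7.24 may be background.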

Other observations

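The response element core also occurred outside the set. Among tested genes with a promoter in the table and outside the set, 24 of 433 called at least 2-fold higher in CK than in WT held it (5.54%), as did 14 of 522 called at least 2-fold lower (2.68%) and 239 of all 9538 (2.51%). In KO versus WT the counts were 9 of 290 higher (3.10%) and 14 of 476 lower (2.94%). These are counts of letters in promoters, with no test.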
